A study of Mus musculus with 8 samples.

Results

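Cathepsins are proteases found mainly in the lysosome. Primary VSMCs (vascular smooth muscle cells) of the mouse, the contractile cells of the vessel wall, were studied after knockdown of Sox6. In them 10 cathepsin genes (Ctsa, Ctsb, Ctsc, Ctsd, Ctsf, Ctsh, Ctsk, Ctsl, Ctss and Ctsz) were followed here. They were chosen by name, with earlier results of these data known. They are rows of a gene count table of 30660 identifiers whose Ensembl identifiers were matched to mouse symbols. All 10 were found once in the table and all 10 passed the filter on low counts. Bulk RNA sequencing gave 8 libraries of total RNA. The 4 control libraries are labelled nc and wild type (WT), and the 4 knockdown libraries are labelled sisox6 and Sox6 knockdown. Strain, age, vessel of origin, the knockdown reagent, its dose and its duration are not stated in the labels. Whether the 4 libraries of a group stem from different cultures or mice is not stated either, so each p-value reflects library-to-library spread alone, possibly technical. The series title links Sox6, a transcription factor gene, to VSMC phenotype, autophagy and blood pressure.

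Most cathepsins are made as inactive precursors, tagged with mannose 6-phosphate in the Golgi, carried to the lysosome and activated there by acid and by other proteases. Ctsb, Ctsc, Ctsf, Ctsh, Ctsk, Ctsl, Ctss and Ctsz encode cysteine proteases of the papain type, Ctsd encodes an aspartic protease and Ctsa a serine carboxypeptidase. Inside the lysosome they degrade proteins delivered by autophagy and endocytosis. In the vessel wall, cathepsins K, L and S are also known from outside the cell, where they can cut elastin and collagen, and cystatins hold their activity down.

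The lysosomal genes are known targets of the transcription factors TFEB, TFE3 and MITF, which bind a DNA element built on the letters CACGTG, so these letters were searched in promoters. RefSeq windows (GRCm38.p6) from 250 bases before to 50 bases after the annotated start were at hand for 8 of the 10 genes, 9 windows in all since Ctsa has 2. CACGTG, which reads the same on both strands, was in 4 of the 9 windows, against 7.15% of 32851 windows of the same length. The longer TCACGTG, searched on both strands and containing CACGTG, was in 2 of the 9 and in 3.77% of all. TGANTCA, the AP-1 motif, was in 0 of the 9 and in 7.81% of all. The GC box CCGCCC was in 5 of the 9 and in 35.7% of all, and TATAAA in 1 of the 9 and in 13.6% of all. A match is a description of the letters in the window and shows no binding. All 4 windows with CACGTG are printed, and also that of Ctsz, the member that fell, which has none. A link between these letters and the changes in level was not tested. The shares over all windows were not matched for content of G and C, whose median over all windows was 52.7%. It was 54.7% in the printed window of Ctsa, 67.3% in Ctsd, 50% in Ctsl, 59.7% in Ctsf and 61% in Ctsz. Capitals mark CACGTG, and each window is written 5′ to 3′ on the gene's strand.
Ctsa, chr2:164833523-164833822, plus strand: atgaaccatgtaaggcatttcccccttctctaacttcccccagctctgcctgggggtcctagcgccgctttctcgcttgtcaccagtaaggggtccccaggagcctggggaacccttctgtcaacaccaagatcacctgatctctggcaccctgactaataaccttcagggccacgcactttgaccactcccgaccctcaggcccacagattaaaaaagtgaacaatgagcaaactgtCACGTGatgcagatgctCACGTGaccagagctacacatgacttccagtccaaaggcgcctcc
Ctsd, chr7:142387778-142388077, minus strand: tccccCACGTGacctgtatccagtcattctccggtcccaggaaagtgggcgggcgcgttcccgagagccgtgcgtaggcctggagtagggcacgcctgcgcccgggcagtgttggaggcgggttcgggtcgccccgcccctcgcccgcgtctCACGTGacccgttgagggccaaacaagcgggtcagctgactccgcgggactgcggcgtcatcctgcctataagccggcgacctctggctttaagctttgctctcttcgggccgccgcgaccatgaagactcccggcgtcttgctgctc
Ctsl, chr13:64370471-64370770, minus strand: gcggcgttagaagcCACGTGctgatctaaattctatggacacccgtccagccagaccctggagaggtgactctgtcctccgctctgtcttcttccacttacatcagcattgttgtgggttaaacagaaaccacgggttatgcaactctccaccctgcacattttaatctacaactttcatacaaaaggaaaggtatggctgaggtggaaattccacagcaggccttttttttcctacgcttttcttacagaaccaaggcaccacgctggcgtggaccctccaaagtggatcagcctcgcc
Ctsf, chr19:4854915-4855214, plus strand: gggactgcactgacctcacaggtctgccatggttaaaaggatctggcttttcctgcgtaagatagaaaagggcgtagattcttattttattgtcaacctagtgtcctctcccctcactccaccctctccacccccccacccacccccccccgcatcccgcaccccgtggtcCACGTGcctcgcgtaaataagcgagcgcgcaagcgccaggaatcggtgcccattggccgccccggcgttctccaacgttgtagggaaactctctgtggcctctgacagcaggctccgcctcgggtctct
Ctsz, chr2:174438990-174439289, minus strand: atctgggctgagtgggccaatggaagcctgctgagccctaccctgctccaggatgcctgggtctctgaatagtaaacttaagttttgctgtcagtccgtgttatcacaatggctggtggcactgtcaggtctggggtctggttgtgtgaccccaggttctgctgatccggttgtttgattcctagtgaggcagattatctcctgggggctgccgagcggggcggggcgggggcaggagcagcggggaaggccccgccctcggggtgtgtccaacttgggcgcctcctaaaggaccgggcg
In the second window of Ctsa and in that of Ctsd the letters occur as a pair, and in the windows of Ctsl and Ctsf singly. The first match began 12 bases before the start in Ctsa, 245 before it in Ctsd, 236 before it in Ctsl and 79 before it in Ctsf. These distances are from the RefSeq start of each window. The Ctsl window and the second of Ctsa lie wholly inside the gene spans given below, downstream of the outer start of the gene. Windows of Ctsc, Ctsk, Ctss and the first of Ctsa, like that of Ctsz, did not hold CACGTG, and of these Ctsc and Ctsk rose too. Ctsb and Ctsh, which also rose, had no window at hand.

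Total counts per library ran from 37604102 to 49393224, and the floor used for a zero, 3 counts, is worth 0.0607 to 0.0798 CPM (counts scaled to 1e6 per library). Such floors cover counting error only. Sox6 itself was rare, with 6, 10, 6 and 4 counts in the controls and 2, 4, 0 and 0 in the knockdowns. Scaled to total counts this is 0.144 ± 0.0527 against 0.0318 ± 0.0394 CPM (SD, n = 4 each; exact two-sided permutation p = 0.0286, the smallest that 4 against 4 libraries can give). Control replicate 4 and knockdown replicate 2 had 4 counts each, and only their depth set them apart (0.096 and 0.081 CPM). The full separation behind this p thus rests on that difference in depth. Most low counts were even, and if both reads of a pair were counted, the number of fragments would be lower than these counts of Sox6, of Ctss and of the floor; with halved counts the tests called 8 cathepsin genes higher and 1 lower. Smooth muscle markers were lower in the knockdown: of 8, 7 were tested, 4 fell (Acta2, Smtn, Cald1 and Tpm2), 0 rose and 3 did not pass, and the 8 summed to 1934 to 2197 CPM in controls and 1395 to 1597 CPM in knockdowns. Acta2 stood at 1239 ± 136 and 948 ± 102 CPM, while Myh11 (5.89 ± 0.986 and 7.28 ± 2.44 CPM) and Cnn1 (2.23 ± 0.486 and 1.91 ± 0.769 CPM) were low and Tagln was near the floor (20 counts over the controls, 38 over the knockdowns). Exons of Tagln overlap Gm48529 and Pcsk7 on the other strand over 67.9% of their length. Whether reads from the shared bases were counted for Tagln is not known, so its count may not give its level. Over all tested genes 25.4% were higher and 26% lower at an edgeR adjusted p under 0.05, the shares to set beside these marker counts. Some markers of other cell types moved with the groups too. Of 6 fibroblast markers, 2 rose, 1 (Dpt) fell and 3 did not pass, with sums of 270.1 to 315 CPM in controls and 307 to 359.5 CPM in knockdowns. Those that rose were Pdgfra, from 38.6 ± 1.26 to 78.3 ± 11.6 CPM (log2 fold change 1.02, edgeR adjusted p = 1.8e-07), and Pi16, from 0.708 ± 0.168 to 1.495 ± 0.160 CPM. All 6 cardiac muscle markers fell, their summed level going from 218 to 314 CPM over the control libraries to 23.4 to 86.9 CPM over the knockdowns, and of 5 tested endothelial markers 4 fell and 1 rose. In bulk RNA, fewer cells of a type and less RNA per cell cannot be told apart, and the part of these shifts in the cathepsin results was not tested. Macrophages are rich in cathepsins. The 14 macrophage markers summed to 62.7 to 69.2 CPM in controls and 59.3 to 63.9 CPM in knockdowns, none being at 0. Most of that sum came from Csf1r (32.1 ± 1.58 and 29.9 ± 2.56 CPM, not past the test) and Cd14 (29.2 ± 0.757 and 25.6 ± 3.1 CPM, which fell). Cd68, a lysosomal membrane protein, rose from 1.65 ± 0.405 to 3.01 ± 0.411 CPM, and Lyz2 did not pass. The other 10, among them Ptprc, Adgre1, Itgam and Tyrobp, had 2 to 38 counts over the 4 libraries of a group and did not pass the filter. Exons of Itgam overlap Gm49368 on the same strand over 68.7% of their length, which leaves its count uncertain. The part of macrophage RNA in the cathepsin results was not tested. Osteoclast markers, relevant to Ctsk, summed to at most 0.817 CPM in any library, with Calcr at 0.

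Cathepsin transcripts were mostly higher in the knockdown by modest amounts, and Ctsz went the other way. Of the 10 genes, 8 rose, 1 fell and 1 (Ctss) did not pass. Called here means a Benjamini-Hochberg adjusted p under 0.05 from edgeR's quasi-likelihood test over all 16150 genes tested. By that rule 25.4% of tested genes were higher and 26% lower, and with total count scaling the split was 5921 higher and 3046 lower in place of 4105 and 4206. The members' median log2 fold change (knockdown minus control) was 0.44, against 0.02 over all tested genes. Since the members were chosen with earlier results of these data known, this contrast is descriptive and no independent support. In 7 members every knockdown library lay above every control, and in Ctsz every knockdown library lay below; over all tested genes these shares were 22.8% and 24%. Scaling by total counts raised the median of all genes from 0.02 to 0.12, and the same 8 and 1 members were called. The summed level of the 10 went from 2690.4 ± 152 CPM over the control libraries to 3349 ± 138 CPM over the knockdown libraries (SD, n = 4 per group). Control replicate 3 was the lowest control for 8 of the 10 members, and without it 7 rose and 1 fell.

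**Figure D1:**
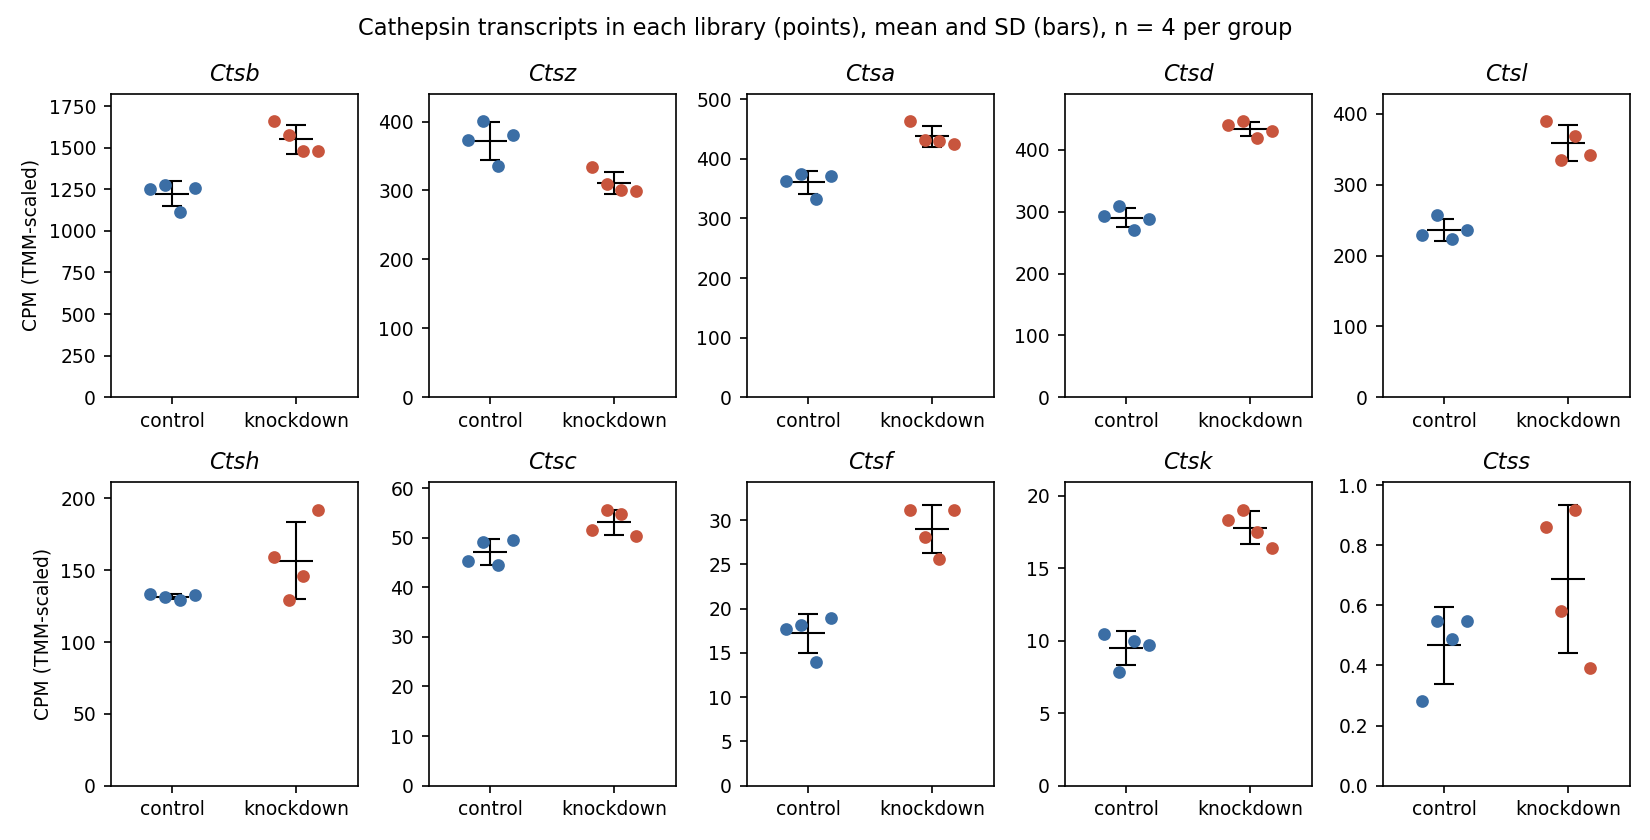
Level of each cathepsin gene in every library, in TMM-scaled CPM on linear axes that start at 0, ordered by control level; points are libraries and bars the mean and SD of 4. The points of the groups are apart for 8 genes and overlap for Ctsh and Ctss.

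Cathepsin D (Ctsd, ENSMUSG00000007891, mm10 chr7:142375911-142388038, minus strand), the main aspartic protease of the lysosome, stood at 293, 309, 271 and 289 CPM in control replicates 1 to 4. The knockdowns gave 439.9, 447, 419.7 and 431 CPM. The 2 ranges were far apart, and the spread within a group was 5.43% of the mean in controls and 2.69% in knockdowns. The log2 fold change, knockdown minus control, was 0.58 ± 0.04 (SE; edgeR adjusted p = 8.8e-08). Of its exon bases 34.4% also belong to Gm49369, a gene on the same strand that was matched to no row of the count table. How reads from the shared bases were counted is not known, and their part in the Ctsd result was not tested.

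Among the cysteine endopeptidases, cathepsin L (Ctsl, ENSMUSG00000021477, chr13:64359337-64370890, minus strand), a broad protease of lysosomal protein turnover, was the most abundant after Ctsb. Control libraries held 229, 258, 223 and 236 CPM and knockdown libraries 389.9, 334, 369 and 342 CPM. No knockdown value came near the controls, and the rise was 1.52-fold (0.60 ± 0.06, edgeR adjusted p = 6.7e-07). Gm47123 on the other strand and Gm49230 on the same strand cover 26.8% of its exon bases, but no 50-base stretch of the coding transcript used for its length occurs in another gene. Cathepsin K (Ctsk, ENSMUSG00000028111, chr3:95499256-95509362, plus strand), the collagen-cutting enzyme of osteoclasts, was scarce and had the largest rise of the 10. It went from 10.5, 7.83, 10.001 and 9.68 CPM in controls to 18.3, 19.0, 17.5 and 16.4 CPM in knockdowns. The lowest knockdown library was well above the highest control, and the change was 1.87-fold (0.91 ± 0.09, edgeR adjusted p = 1.0e-06). Its log2 fold change was above that of 94.8% of tested genes, and it was the only member whose change passed a test against 1.5-fold (glmTreat, adjusted p = 0.00441).

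Cathepsin F (Ctsf, ENSMUSG00000083282, chr19:4855130-4860918, plus strand), a lysosomal cysteine protease with a long propeptide, was measured at 17.7, 18.1, 14.0 and 19.0 CPM in controls and at 31.1, 28.1, 25.6 and 31.2 CPM in knockdowns. Control replicate 3 was the low one of its group, and all knockdowns exceeded all controls. The rise was 1.69-fold (0.75 ± 0.09, edgeR adjusted p = 8.0e-06). Cathepsin S (Ctss, ENSMUSG00000038642, chr3:95526786-95556403, plus strand), the elastin-cutting enzyme best known from antigen-presenting cells, was barely detected. Its counts were 12, 24, 23 and 22 in controls and 38, 30, 36 and 19 in knockdowns, or 0.281 to 0.549 against 0.392 to 0.919 CPM. The groups overlapped, and the log2 fold change of 0.54 had a 95% interval from -0.17 to 1.26 (edgeR adjusted p = 0.187), so a small fall and a rise above 2-fold both lay within the interval at this depth. Ctsk and Ctss lie next to each other on chromosome 3.

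Cathepsin B (Ctsb, ENSMUSG00000021939, chr14:63122462-63145923, plus strand), both an endopeptidase and a dipeptidyl carboxypeptidase, gave the most counts of the family. Controls stood at 1251, 1277, 1114 and 1259 CPM and knockdowns at 1661, 1576, 1484 and 1480.3 CPM. Control replicate 3 lay below the other 3, and every knockdown was higher than every control. The rise was 1.27-fold (0.34 ± 0.05, edgeR adjusted p = 8.7e-05). Over 12.8% of its exon bases Ctsb overlaps Fdft1, a sterol synthesis gene on the other strand, which rose from 142 ± 15.6 to 237 ± 9.8 CPM. No source used here says whether counting used strand. The part of reads from the shared bases in the Ctsb result was not tested.

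The exopeptidases trim proteins from an end. Cathepsin H (Ctsh, ENSMUSG00000032359, chr9:90054152-90076089, plus strand), an aminopeptidase, was steady in controls at 133, 131, 129 and 133 CPM. Knockdown libraries spread widely, at 159, 129, 146 and 192 CPM, so the groups overlapped. The rise of 1.19-fold (0.25 ± 0.09, edgeR adjusted p = 0.0262) rested in large part on knockdown replicate 4: without it the log2 fold change was 0.14 (adjusted p = 0.075). The call was also lost without control replicate 1 (adjusted p = 0.0514), 2 (adjusted p = 0.0527) or 3 (adjusted p = 0.0513), or knockdown replicate 1 (adjusted p = 0.0525). Cathepsin C (Ctsc, ENSMUSG00000030560, chr7:88278085-88310888, plus strand), a dipeptidyl peptidase that activates granule serine proteases of immune cells, had the smallest change. It went from 45.2, 49.1, 44.5 and 49.6 CPM to 51.6, 55.7, 54.8 and 50.4 CPM. The groups only just failed to overlap, and the rise of 1.13-fold (0.17 ± 0.05, edgeR adjusted p = 0.0112) was lost without replicate 3 of both groups (0.13, adjusted p = 0.0808).

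Cathepsin Z (Ctsz, ENSMUSG00000016256, chr2:174427493-174439039, minus strand), a carboxypeptidase whose propeptide is known in human to bind integrins, was the member that fell. Control libraries held 373, 401, 335 and 381 CPM and knockdown libraries 334, 309, 300.1 and 299.9 CPM. The highest knockdown, replicate 1, was just under the lowest control, replicate 3. The level fell by 0.26 on the log2 scale (± 0.05 SE, 95% interval -0.38 to -0.14, edgeR adjusted p = 0.00101), and by 0.16 with total count scaling (adjusted p = 0.0143). Of tested genes 23.2% had a lower log2 fold change. Its interval did not meet that of any of the 8 members that rose. Cathepsin A (Ctsa, ENSMUSG00000017760, chr2:164832873-164841032, plus strand), the carboxypeptidase that also protects lysosomal sialidase and beta-galactosidase in a complex, rose. It was at 363, 375, 332 and 371 CPM in controls and at 463, 432, 431 and 425 CPM in knockdowns, with no overlap. The rise was 1.22-fold (0.28 ± 0.05, edgeR adjusted p = 0.000145). Ctsa shares 17.4% of its exon bases with Neurl2 and Pltp on the other strand, of which Pltp rose from 91.0 ± 5.92 to 119 ± 6.53 CPM.

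**Figure D2:**
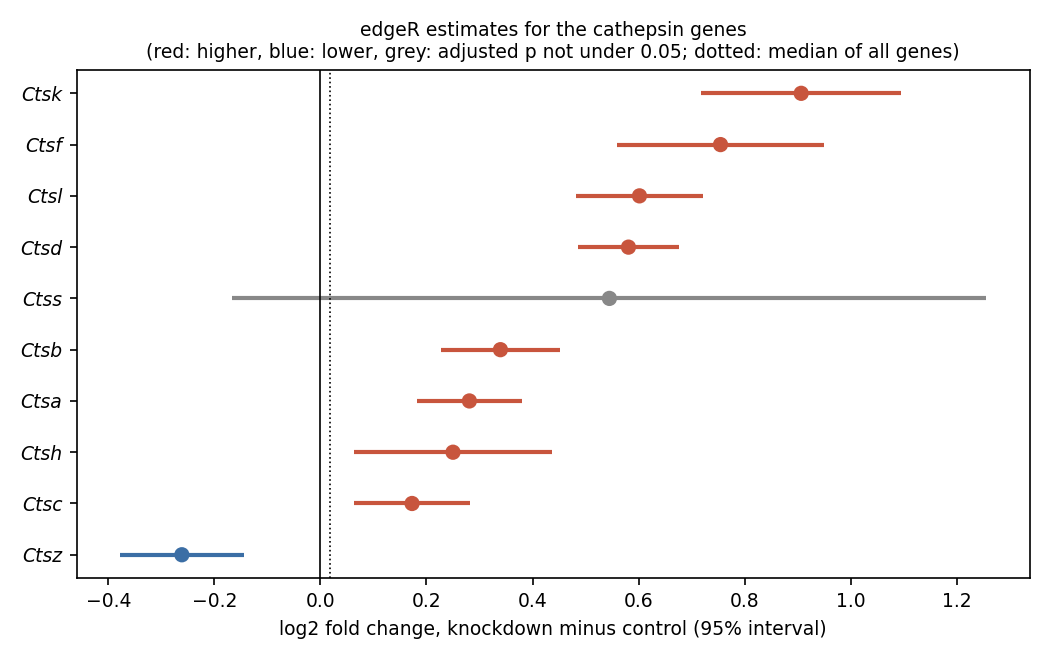
Log2 fold change (x axis, knockdown minus control) of each cathepsin gene with its 95% interval from edgeR, 4 libraries per group; the dotted line marks the median of all tested genes (0.02). Estimates run from -0.26 for Ctsz to 0.91 for Ctsk, and the interval of Ctss alone crosses 0.

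The change was thus not even over the family. The intervals of Ctsd (0.49 to 0.68), Ctsl (0.48 to 0.72), Ctsf (0.56 to 0.95) and Ctsk (0.72 to 1.096) lay above those of Ctsa (0.18 to 0.38), Ctsb (0.23 to 0.45), Ctsc (0.06 to 0.28) and Ctsh (0.06 to 0.44). Differences between members were not tested. To set levels of different genes side by side, CPM were divided by the length in kilobases of 1 coding transcript per gene. In controls Ctsz (258 ± 19.2) and Ctsb (258 ± 15.8) were highest on this length-scaled level and did not differ beyond their spread. Ctsa (142 ± 7.61), Ctsd (136 ± 7.41) and Ctsl (119.9 ± 7.7) followed, and the ranges of Ctsa and Ctsd, and of Ctsd and Ctsl, overlapped. Ctsh (81.4 ± 1.25), Ctsc (14.6 ± 0.814), Ctsf (8.69 ± 1.11), Ctsk (6.28 ± 0.764) and Ctss (0.345 ± 0.0937) came last. In knockdowns the order at the top was Ctsb (327 ± 18.1), Ctsz (216 ± 11.02), Ctsd (204 ± 5.49), Ctsl (182 ± 13.0) and Ctsa (173 ± 6.81). Each neighbouring pair from Ctsz to Ctsa had overlapping ranges there.

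The make-up of the cathepsin pool, which does not depend on library scaling, moved away from Ctsz. Its share of the summed length-scaled level averaged 25.1 ± 0.477% in the control and 17.4 ± 0.303% in the knockdown group (SD, 4 libraries each), and the libraries of the groups were far apart. The share of Ctsd went from 13.3 ± 0.214% to 16.5 ± 0.589% and that of Ctsl from 11.7 ± 0.408% to 14.7 ± 0.759%, also without overlap. The shares of Ctsk (0.615 ± 0.0979% and 0.949 ± 0.0624%) and Ctsf (0.844 ± 0.0707% and 1.18 ± 0.0889%) were small and higher in every knockdown library. Ctsb (25.2 ± 0.366% and 26.3 ± 0.777%), Ctsa, Ctsc, Ctsh and Ctss had shares that overlapped between groups on this scale. These shares depend on the length used: with all exons of a gene pooled that of Ctsz was 34.7% and 24.9%, and with no length scaling 13.8% and 9.27%. That of Ctsl was 4.89% and 6.38% with pooled exons and 8.79% and 10.7% unscaled, that of Ctsd 16.6% and 21.3% and then 10.8% and 13.0%, and that of Ctsb 27.2% and 29.5% and then 45.5% and 46.3%. The order of levels also depends on the length: with pooled exons the control level of Ctsl was 36.4 in place of 119.9, and that of Ctsb 202 in place of 258, below Ctsz at 258. Directions for Ctsz, Ctsd, Ctsl, Ctsk, Ctsf, Ctsb, Ctsc and Ctss were alike under all 3, while the small differences of Ctsa and Ctsh changed sign.

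**Figure D3:**
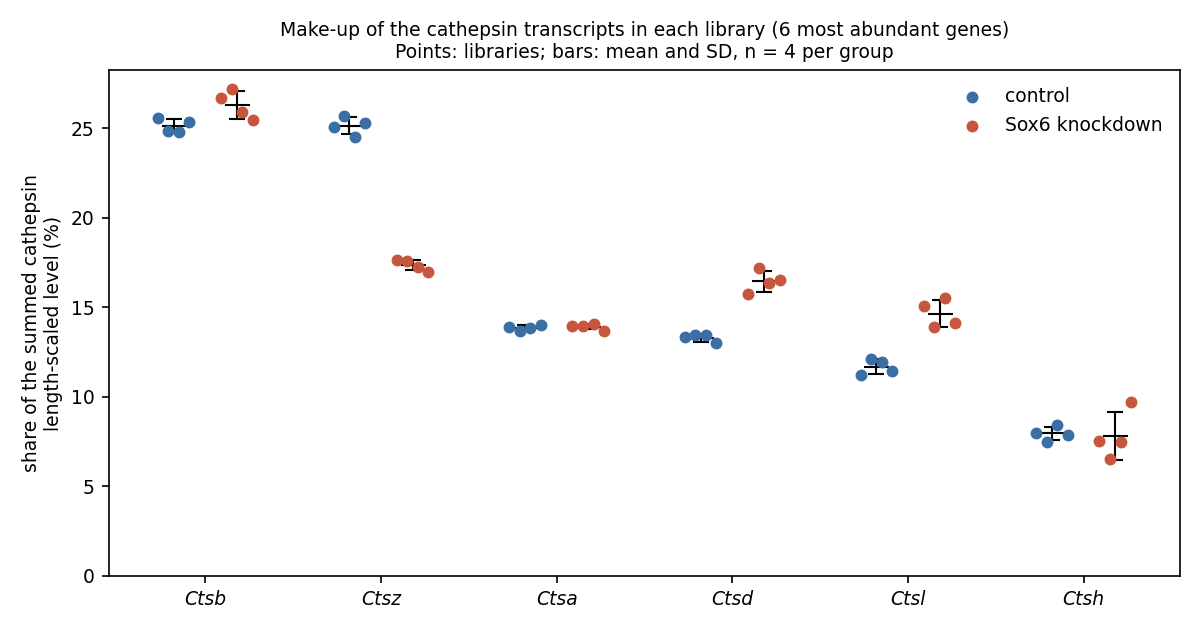
Share (y axis, percent) of the 6 most abundant cathepsin genes in the summed length-scaled level of the 10, by library; points are libraries and bars the mean and SD of 4 per group. Ctsz sits near 25.1% in controls and 17.4% in knockdowns, and Ctsd and Ctsl are higher in all 4 knockdown libraries.

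Other cathepsin genes added little. Of 13 listed, 5 were in the table and 3 tested, and Ctso, a further lysosomal cysteine protease, was the only call, rising from 13.8 ± 0.963 to 18.3 ± 1.35 CPM (0.41, edgeR adjusted p = 0.000348). Ctse and Ctsw did not pass, and the placental genes Ctsq and Ctsll3 had 2 counts each, all in knockdowns. The other 8 were not analysed here. No stretch of 50 bases of a member's coding transcript occurred in another cathepsin gene.

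Natural inhibitors of the cysteine cathepsins went both ways. Of 12 listed, 9 were tested: 5 rose, 3 fell and 1 did not pass, with a median of 0.29. Over all tested genes 25.4% rose and 26% fell, with a median of 0.02. This list and those below were chosen with earlier results of these data known. Cystatin C (Cst3), the main secreted inhibitor, fell from 332 ± 14.1 to 250.1 ± 21.6 CPM (log2 fold change -0.41, edgeR adjusted p = 2.8e-05). The secreted cystatin E/M (Cst6) fell too, from 18.8 ± 1.11 to 11.5 ± 1.82 CPM (-0.71, adjusted p = 3.4e-05). Ctla2a, which resembles a cathepsin propeptide, was at 22.7 ± 2.05 and 15.9 ± 0.819 CPM (-0.51, adjusted p = 3.6e-05). Stefin B (Cstb), the inhibitor inside the cell, rose from 110 ± 5.77 to 139.7 ± 6.80 CPM (0.34, adjusted p = 4.1e-05). The other 4 that rose, named after their values were seen, were Serpina3g (0.29) and the rare Stfa3, Kng1 and Kng2, each with under 200 counts per group. Ctla2a, Stfa3, Kng1 and Kng2 have near-identical copies, so their counts are uncertain. The 10 of the list found in the count table summed to 475 to 527 CPM in controls and 411 to 472 CPM in knockdowns. Most of that sum was Cst3.

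Genes that carry or work with cathepsins rose more often than they fell. Over all tested genes 25.4% rose and 26% fell, and total count scaling raised the number higher from 4105 to 5921. Of 18 genes of mannose 6-phosphate tagging and sorting, 10 rose (15 with total count scaling), 1 fell and 7 did not pass, with a median of 0.14. Among them were the retromer subunit Vps26a (0.40, edgeR adjusted p = 1.2e-05), Gnptg, a subunit of the tagging enzyme (0.46, adjusted p = 4.2e-05), Vps41, which serves fusion with lysosomes (0.25, adjusted p = 9.6e-05), and the adaptor Gga3 (0.34, adjusted p = 0.000271). Exons of Gnptg overlap Unkl on the other strand over 49.5% of their length. The gene that fell was M6pr, the small mannose 6-phosphate receptor, from 239 ± 6 to 208 ± 5.29 CPM (-0.21, adjusted p = 0.00037), while the large receptor Igf2r was at 0.13 (adjusted p = 0.0211). Of 9 tested lysosomal peptidases and partners, 7 rose and 0 fell, with a median of 0.38; 0 were lower at an unadjusted p under 0.05 or called lower by DESeq2 or limma-voom. Dpp7, a dipeptidyl peptidase, rose from 53.2 ± 4.45 to 87.3 ± 4.94 CPM (0.72, adjusted p = 2.5e-07). Scpep1, a relative of Ctsa, was at 0.43 (adjusted p = 5.8e-06), the tripeptidyl peptidase Tpp1 at 0.41 (adjusted p = 6.9e-06) and the sialidase Neu1, a partner of Ctsa, at 0.38 (adjusted p = 9.3e-06). Legumain (Lgmn), which cuts single-chain cathepsins into their chains, stood at 164 ± 12 and 152 ± 8.56 CPM (-0.11, 95% interval -0.23 to 0.01, adjusted p = 0.114).

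**Figure D4:**
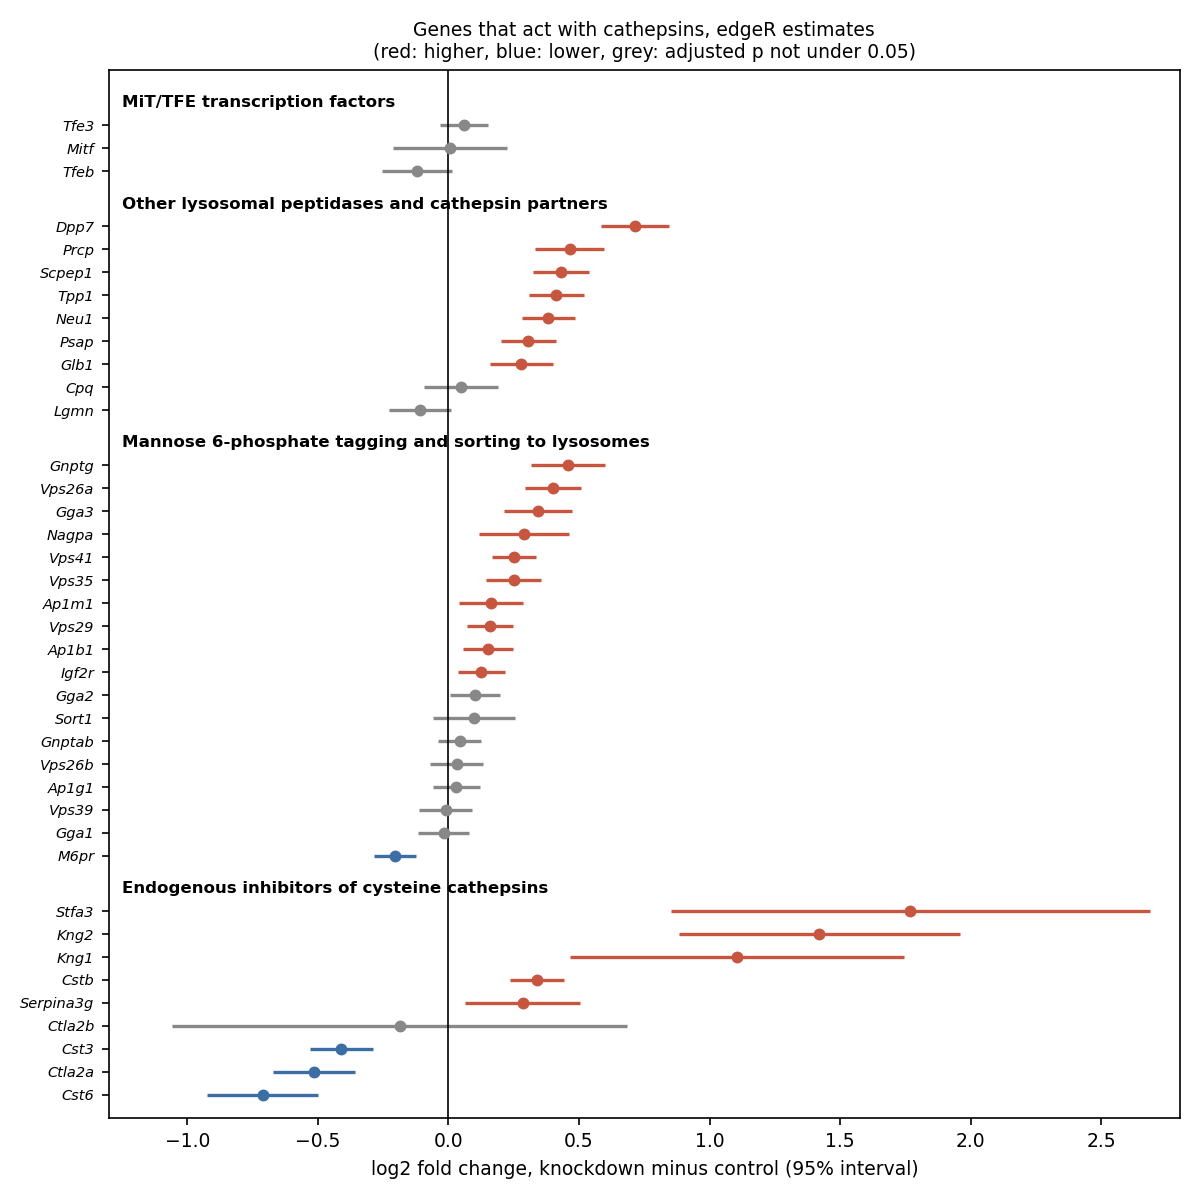
Log2 fold change (x axis, knockdown minus control, 95% interval from edgeR, 4 libraries per group) of the tested genes of 4 lists that act with cathepsins. Inhibitors lie on both sides of 0 (Cst6 at -0.71, Cstb at 0.34), 7 of 9 peptidases and partners are red (called higher), and the 3 MiT/TFE factors are grey (not called).

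Transcripts of the MiT/TFE factors did not pass the test: of 3 tested, edgeR called 0, with 0 at an unadjusted p under 0.05 and 0 called by DESeq2 or limma-voom. Tfeb stood at 22.4 ± 1.59 and 20.6 ± 0.615 CPM (-0.12, 95% interval -0.25 to 0.01, adjusted p = 0.123) and Tfe3 at 84.7 ± 2.72 and 88.2 ± 3.45 CPM (0.06, 95% interval -0.03 to 0.15, adjusted p = 0.271). With total count scaling 1 of the 3 was called higher. Of 13 matrix genes whose proteins cathepsins can cut, 9 fell and 1 (Col3a1, 0.27) rose, with a median of -0.39. Over all tested genes 26% fell and 25.4% rose. Elastin (Eln, -2.46), fibronectin (Fn1, -1.77), Nid1 (-0.73) and Bgn (-0.68) had the smallest adjusted p-values, all with groups that did not overlap. RNA levels do not give the amount or activity of the proteases, which these data do not hold.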

How the data were processed

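RNA was measured in 8 libraries of primary mouse VSMCs (4 control, 4 Sox6 knockdown), using TRIzol and NEBNext Ultra library kits, per the labels' protocols. The deposited values are raw read counts per gene; the submitters' processing notes name mm10 and DESeq2, with aligner, counter and strand not given in the sources used here. Symbols, positions and lengths came from GENCODE M21 (same build), which named 30008 of 30660 rows. The members and lists were chosen with earlier results of these data known.

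Genes were filtered (filterByExpr, minimum count 10), scaled by TMM and tested with edgeR 4.0.16 in R 4.3.3 (glmQLFit, glmQLFTest, no covariate), with Benjamini-Hochberg adjustment over 16150 genes and a threshold of 0.05. CPM use TMM-scaled library sizes except for Sox6. Standard errors are the log2 fold change over the square root of F, and intervals use its degrees of freedom. Length-scaled levels use 1 transcript per gene (coding, CCDS, best support, longest). The rule for naming list genes took up to 4 with the smallest p past the threshold, or 2 where none passed. Some further genes, such as M6pr, Igf2r, Lgmn, Col3a1, Ctse, Ctsw and the other inhibitors that rose, were named outside this rule. In a simulated knockdown against control comparison (15893 genes), the test found 16 of 50 genes changed 1.2-fold, 31 of those changed 1.5-fold, 39 of those changed 2-fold and 47 of those changed 4-fold; 7 of its 140 calls were wrong. Only 50 genes per fold were changed in that simulation, while 8311 of 16150 tested genes were called in the data. The recovery and error of the reported test may therefore differ from these. Between 72% and 74.2% of counts from 1 to 40 were even, so halved counts were tried. The chi-square per degree of freedom between libraries of a group was 6.15 to 17.6, so none was a duplicate within sampling noise. Alternatives were other scalings and filters, DESeq2 1.42.0, limma-voom (limma 3.58.1), the replicate number as a block, stricter thresholds, and libraries left out; the exon-union length was added after the data were seen.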

Additional observations from a re-analysis of the deposited data

Results flagged for a closer look

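Among 60 sets of 4 libraries (30 named genes in 2 groups), 5 had a library whose gap to its nearest neighbour exceeded 0.829 of the group's range, where chance flags about 1 in 20. For Ctsb, control replicate 3 stood at 1114 CPM and the other controls at 1251 to 1277 CPM; without it the log2 fold change of Ctsb was 0.29. The same library was low for Ctso, at 12.4 CPM against 14.2 to 14.4 CPM. Control replicate 1 was high for Scpep1, at 103 CPM against 96.1 to 97.2 CPM. Knockdown replicate 2 was low for Fn1, at 915 CPM against 1002 to 1019 CPM. For Eln, control replicate 4 was at 100.2 CPM and the others at 96.1 to 96.7 CPM.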

How the results depend on the processing

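Against a fold of 1.5 (glmTreat), 1 cathepsin gene was called higher and 0 lower, with 1418 genes called in all in place of 8311 (2242 at an unadjusted p under 0.05). With the other 22 alternatives, 6 to 8 cathepsin genes were called higher and 1 lower, and no member changed sign; the 6 came with an adjusted p under 0.01, which dropped Ctsc and Ctsh. Leaving out libraries gave 7 to 8 higher, 1 lower and 7180.0 to 8032 genes called. Whether the replicate numbers shared by the groups pair the libraries is not known. Correlations of deviations ran from -0.356 to 0.151, which cannot settle it. With the replicate block 8 and 1 cathepsin genes and 7985 genes were called. The Sox6 difference of -0.112 CPM ran from -0.128 to -0.087 CPM with 1 library left out, and p was 0.0571 without control replicate 2 or knockdown replicate 3 or 4, above the smallest p of a 3 against 4 design, 0.0286. Inhibitors called higher numbered 3 with a filter of 1 CPM, which tests fewer genes, or without replicate 4 of both groups, and 2 against 1.5-fold. Against 1.5-fold, 3 matrix genes were called lower, and 0 sorting genes and 0 peptidases were called higher. Lgmn was called lower without control replicate 3. Depth limits Ctss above all, at 81 and 123 counts over the groups.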
